A study of Homo sapiens with 3 samples.

Results

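Long intergenic non-coding RNAs with LINC symbols were followed on the arrays of this study. A gene was taken as a member when the transcript accession printed for its probe matched a RefSeq gene whose symbol is LINC followed only by digits. RefSeq lists 2304 such genes, and 358 of them had a probe here, out of 19699 matched genes. By its probe brightest on average over the arrays, a gene was kept when well above background on at least 1 array, as flagged by the scanner software. This held for 222 of the 358, and these 222 were kept out of 16761 kept genes. The other 136 LINC genes were not well above background on any array by that probe, so the results below do not cover them. Among them, LINC00957 had another probe that was above background on the control array (42.3). For 315 of the 358 there was 1 probe, and 43 had several, up to 7. Where a gene had several, the probe brightest on average over the arrays stood for it.

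PANC-1, an established line of human pancreatic ductal cancer cells, was left untreated (control) or was treated with cantharidin (CAN), a terpenoid from blister beetles, or with okadaic acid (OA), a polyether toxin of marine plankton. Both compounds inhibit protein phosphatase 2A. The labels give 20 µM and 24 h for each agent, although the treatment text names the dose directly before cantharidin only. Total RNA was labelled with Cy3 and hybridised to a 1-colour oligonucleotide array, with 1 array for each of the 3 conditions. Without replicates no test across arrays was possible, so no p-value is given, and every difference is a difference between 2 arrays. Both agents are compared with the same control array, so a dim or bright control spot moves both differences of a gene together. Whether a different signal came from more cells with the transcript or from more RNA per cell cannot be told apart.

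Long intergenic non-coding RNAs are transcribed by RNA polymerase II from stretches between protein-coding genes, and most are capped, spliced and polyadenylated like messenger RNAs. They are known for low abundance and for strong dependence on cell type. Some act in the nucleus near the place of transcription, as scaffolds for chromatin proteins or through the act of transcription itself, and others act in the cytoplasm by binding microRNAs or proteins. Many LINC symbols stand for transcripts with no known role.

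Markers of several cell types were looked up on the arrays. All 5 ductal epithelial markers (KRT7, KRT8, KRT18, KRT19 and SOX9) and the mesenchymal VIM were well above background on all 3 arrays. Of the 8 markers of acinar, islet, white blood and endothelial cells, CPA1 and PECAM1 were above background on no array, while PRSS1, CELA3A, INS, GCG, PTPRC and CDH5 were above background on all 3, so a flag above background does not by itself mark a cell type here. The name intergenic fitted 200 of the 222 kept genes. The ranges of the other 22 overlap a protein-coding gene, and whether the labelling kept the strand is not given in the sources used here. No range of a LINC gene with a probe held a RefSeq microRNA hairpin.

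LINC genes were detected less often than coding genes. On at least 1 array 62.0% of the LINC genes with a probe were above background, against 70.0% of antisense RNA genes, 72.9% of the other genes with a non-coding (NR) accession and 86.4% of the genes with a coding (NM) accession. On all 3 arrays the share was 41.9% for LINC genes (150 of 358) and 72.2% for all matched genes. The control array showed 182 LINC genes above background, the cantharidin array 198 and the okadaic acid array 169. The limits of detection also differed, since the lowest intensity of a probe well above background was 35.0 on the control, 21.9 on the cantharidin and 58.0 on the okadaic acid array. Genes seen on a single array made up 45 of the 222: 24 on the cantharidin array, 17 on the control array and 4 on the okadaic acid array. As shares of the kept genes these are 10.8%, 7.66% and 1.80%, against 3.55%, 3.35% and 0.698% of all kept genes. Another 12 LINC genes were seen with both agents and not in control, 12 in control and with cantharidin, and 3 in control and with okadaic acid. The flags are given as a description, with no test.

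For comparisons the log2 intensity was scaled to each array's 75th percentile (intensities of 784, 713 and 936 for control, cantharidin and okadaic acid), and a gene was called higher or lower at 1.5-fold, the threshold the study used. Intensities below are printed before this scaling, so a fold is not the plain ratio of the printed intensities. Members above background on only 1 of the 2 arrays entered through a difference in the flag, and they are counted apart. Where several probes of a LINC gene could be compared, all moved the same way in 10 of 19 genes with cantharidin and 8 of 18 with okadaic acid. Between the agents it was 8 of 17. Probes past 1.5-fold in opposite directions were found in 0, 1 and 3 of these genes. The choice of probe can set a call: LINC00999 and LINC01001 counted as -0.18 and -0.17 with cantharidin, while another probe gave 3.72 and 3.41.

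With cantharidin, 218 LINC genes could be compared with control. Of these, 59 were higher (27.1%) and 60 lower (27.5%), where 27.5% of all genes were called higher and 34.1% lower. Among the 162 above background on both arrays 36 were higher (22.2%, with 25.6% of all genes) and 40 lower (24.7%, with 33.1%). Their shares called were thus below those of all genes in both directions, and the median log2 difference of the 218 was -0.10 against -0.16 over all genes. The other 56 were above background on 1 of the 2 arrays, with 23 higher and 20 lower. With the dim signal raised to its array's limit of detection where it lay below it, and the detected array the brighter one, 12 were past 1.5-fold higher and 20 lower. Over all genes 1744 were above background on 1 of the 2 arrays, with 763 higher and 739 lower, and 569 and 730 from the limit of detection.

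With okadaic acid, 198 LINC genes could be compared. There were 58 higher (29.3%) and 41 lower (20.7%), beside 28.1% higher and 28.8% lower among all genes. Among the 153 measured on both arrays 43 were higher (28.1%, the same share as the 28.1% of all genes) and 23 lower (15.0%, with 27.1% of all genes). The median of the 198 was 0.18, against 0.01 over all genes. This balance moved with the scaling of the arrays: with scaling to the median in place of the 75th percentile the counts were 44 higher and 48 lower with a LINC median of 0.05 and a median of -0.11 for all genes, and with no scaling they were 78 higher and 27 lower with medians of 0.43 and 0.26. The LINC median stayed above that of all genes in each of these. No share of all genes called is given at these 2 scalings, so their counts do not set LINC genes apart from other genes. The remaining 45 genes, above background on 1 array, held 15 higher and 18 lower, of which 14 and 7 were still past 1.5-fold from the limit of detection. Over all genes 1738 were above background on 1 array, with 492 higher and 739 lower, and 481 and 442 from the limit of detection.

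The agents were also compared directly, which leaves out the control array. Of 205 LINC genes, 68 were higher with okadaic acid than with cantharidin (33.2%, against 29.5% of all genes) and 43 lower (21.0%, against 22.3%), with a median of 0.16 beside 0.13 for all genes. Measured on both arrays, 60 of 162 were higher (37.0%, against 30.4%) and 27 lower (16.7%, against 20.2%). Here too the scaling decided the balance, since scaling to the median gave 51 higher and 59 lower, quantile normalization 50 and 58, the deposited normalized values 57 and 65, and no scaling 100 and 25. The median over all genes also moved, to -0.02, 0.05, 0.06 and 0.52 at these settings. No share of all genes called is given for them, so these counts do not set LINC genes apart from other genes. Of the 43 measured on 1 array, 8 were higher and 16 lower, and 7 and 7 were still past 1.5-fold from the limit of detection. Over all genes 1596 were measured on 1 array, with 339 higher and 672 lower, and 323 and 373 from the limit of detection.

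**Figure D1:**
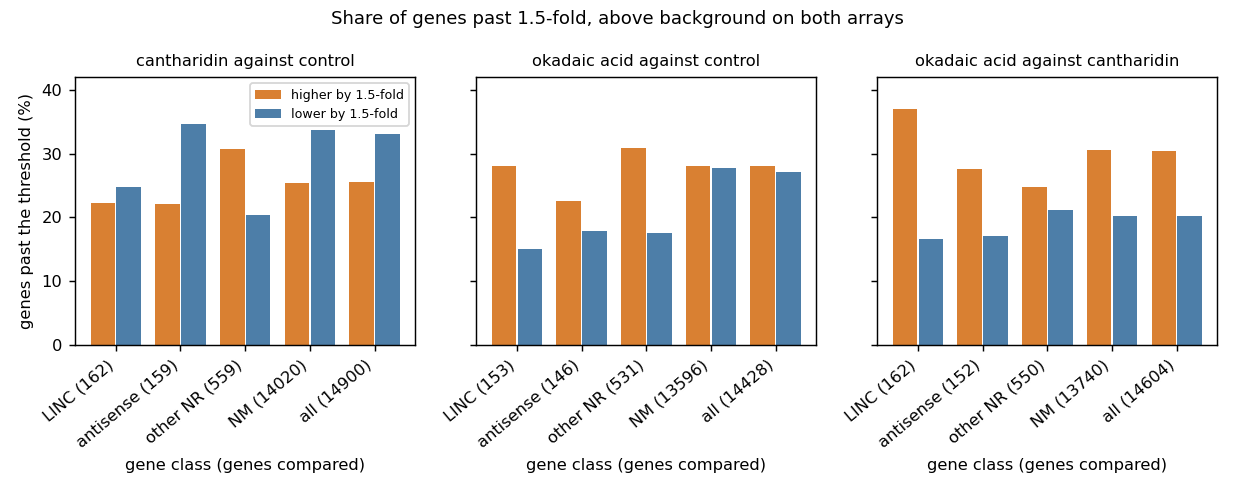
Percent of genes higher (orange) or lower (blue) by 1.5-fold in each comparison, for LINC genes, antisense RNA genes, other genes with an NR accession, genes with an NM accession and all genes, each above background on both arrays (number compared in brackets). LINC genes showed 15.0% lower with okadaic acid against 27.1% of all genes, and 24.7% lower with cantharidin against 33.1%.

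Other non-coding classes gave a scale for these shares. Antisense RNA genes measured on both arrays were lower in 34.6% with cantharidin and 17.8% with okadaic acid, and the other genes with an NR accession in 20.4% and 17.5%. A low share of falls with okadaic acid was thus shared by the 3 non-coding classes, and no test of the difference between classes was made.

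Most LINC signals were dim, and dim spots scatter. Between replicate spots of the same probe on 1 array, 8.41% (control), 14.6% (cantharidin) and 10.2% (okadaic acid) of pairs were at least 1.5-fold apart for probes below -3 on the scaled log2 scale, but 0.164%, 0.354% and 0.199% for probes at 0 or above. When both signals had to be at least -3, 81 LINC genes remained for cantharidin, with 17 higher (21.0%, against 26.9% of all genes) and 15 lower (18.5%, against 33.1%). For okadaic acid 86 remained, with 23 higher (26.7%, against 27%) and 14 lower (16.3%, against 29.4%). Between the agents it was 89, with 23 higher (25.8%, against 26.8%) and 19 lower (21.3%, against 22%). Among these brighter probes the share of LINC genes that fell was below that of all genes under each agent, while the shares that rose with okadaic acid, and both shares between the agents, lay close to those of all genes. A gene that fell below the cut, or rose from below it, left the set, so the cut itself can lower these shares. For cantharidin it left 81 of 162 LINC genes and 11597 of 14900 of all genes, so it can move the LINC shares more.

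**Figure D2:**
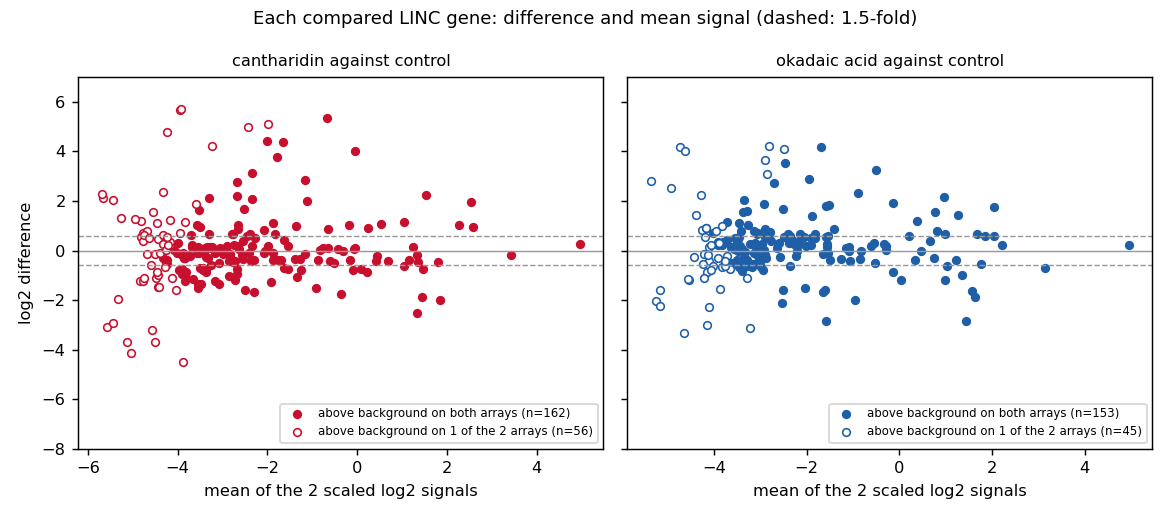
Log2 difference of each compared LINC gene (vertical axis) against the mean of its 2 scaled log2 signals (horizontal axis), for cantharidin (162 filled and 56 open points) and okadaic acid (153 filled and 45 open points). Open points were above background on 1 of the 2 arrays and lie at the dim end, and dashed lines mark 1.5-fold.

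Among genes above background on both arrays whose probes all moved the same way, the strongest rises with cantharidin were LINC00174 and LINC01191. LINC00174, a transcript studied in colorectal cancer, gave intensities of 76.7 in control, 2828 with cantharidin and 291 with okadaic acid. Its log2 difference was 5.34 ± 0.25 with cantharidin and 1.67 ± 0.26 with okadaic acid, where the error is the scanner's own estimate for the spots and not a spread between replicates. LINC01191 read 54.2, 1034 and 237 on the same arrays, which gave 4.39 ± 0.34 and 1.88 ± 0.35. LINC00839 read 131, 847 and 411, or 2.83 with cantharidin and 1.40 with okadaic acid. In all 3 genes both agents were above control and cantharidin was above okadaic acid, by 3.68, 2.52 and 1.44 on the log2 scale. With normexp background correction, which draws dim signals together, the cantharidin differences of LINC00174 and LINC01191 were 4.28 and 2.85.

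LINC00905 and LINC00870 were high on the cantharidin array alone. LINC00905 read 61.4 in control, 765 with cantharidin and 42.5, not well above background, with okadaic acid. The rise with cantharidin was 3.78, and with okadaic acid the gene was at least 1.26-fold lower than control, the opposite direction. That fall is short of 1.5-fold as a bound, and it was under the threshold with normexp background correction, with no scaling, and with dim signals set to the limit of detection. LINC00870 read 52.1, 411 and 46.7, the last not well above background, with a rise of 3.12 for cantharidin. Against cantharidin, okadaic acid was at least 17.3-fold lower for LINC00905 and at least 9.30-fold lower for LINC00870.

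Other genes rose with both agents and more with okadaic acid. LINC02878 went from 56.9 in control to 237 with cantharidin and 1239 with okadaic acid, log2 differences of 2.20 and 4.19. LINC03025 read 180, 648 and 2029 (1.98 and 3.24), and LINC00239 read 74.6, 290 and 660 (2.10 and 2.89). In each of the 3 the okadaic acid array was the highest, by 1.99, 1.25 and 0.79 over cantharidin, the last falling to 0.57, under 1.5-fold, with normexp correction. LINC00115, a transcript studied in glioma, was different in that cantharidin left it near control: 723 in control, 710 with cantharidin and 3891 with okadaic acid gave 0.11 and 2.17.

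For 3 of the strong risers the probes of the gene disagreed in size, and under 1 agent also in direction. LINC01061 had 7 probes, and the one used read 189, 2767 and 1113, log2 differences of 4.01 and 2.31. Over the 7 probes the differences with cantharidin were 4.01, 3.42, 2.58, 1.94, 1.65, 0.06 and -0.10. With okadaic acid they ran from 0.18 to 2.31. LINC01000 read 41.5, 819 and 578 (4.44 and 3.54) by 1 probe, but 95.7, 76.7 and 151 (-0.18 and 0.40) by another. LINC01004 read 46.7, 291 and 372 (2.78 and 2.74) by 1 probe, and 60.6, 62.3 and 53.4 (0.18 and -0.44) by its other probe, the last value not well above background. The rises of LINC01000 and LINC01004 were therefore those of single probes, while that of LINC01061 was seen with several of its probes but not all. Whether the probes of a gene report different transcripts was not tested.

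The promoters of LINC01191, the first gene of the ranking that rose past 1.5-fold with both agents and has a printed promoter, and of LINC01061 are shown from 250 bases before to 50 after the RefSeq start (GRCh38.p14). They lie at chr2:113969072-113969371 on the plus strand and chr4:119410611-119410910 on the minus strand. LINC01061 was added after the values were seen, because it holds the binding motif of AP-1 (TGANTCA), the dimer of Fos and Jun proteins, here TGACTCA in capitals. Motifs were searched on both strands.
LINC01191: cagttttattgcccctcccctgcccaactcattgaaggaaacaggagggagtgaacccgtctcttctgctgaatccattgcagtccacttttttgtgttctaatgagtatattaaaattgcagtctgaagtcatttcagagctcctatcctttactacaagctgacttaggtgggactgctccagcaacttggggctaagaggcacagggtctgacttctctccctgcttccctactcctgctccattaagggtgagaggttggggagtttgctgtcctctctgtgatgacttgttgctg
LINC01061: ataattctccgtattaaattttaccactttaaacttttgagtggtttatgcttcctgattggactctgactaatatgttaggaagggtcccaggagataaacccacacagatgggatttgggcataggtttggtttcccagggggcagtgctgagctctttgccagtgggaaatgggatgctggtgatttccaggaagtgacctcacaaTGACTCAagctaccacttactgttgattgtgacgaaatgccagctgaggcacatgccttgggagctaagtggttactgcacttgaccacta

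A further set of genes rose from signals that were not well above background in control, so only a lower bound of the fold is known. LINC03006 read 33.5 in control, 1046 with cantharidin and 23.5 with okadaic acid, with both low values not well above background, and was at least 32.9-fold higher with cantharidin. LINC00597 read 25.8 (not above background), 745 and 576, at least 23.4-fold higher with cantharidin and at least 13.8-fold with okadaic acid. Its range overlaps the coding gene PEAK1, a pseudokinase of the cytoskeleton, which rose by 1.22 and 1.86 on the log2 scale. LINC01512 read 7.20 (not above background), 340 and 60.9, higher by at least 10.7-fold with cantharidin and by at least 1.46-fold with okadaic acid.

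With okadaic acid the highest bounds were in LINC00240, LINC00597 and LINC00324. LINC00240 read 33.7 (not above background), 112 and 683, at least 3.53-fold higher with cantharidin and at least 16.3-fold with okadaic acid. LINC00324 read 29.7, 16.3 and 441, with only the okadaic acid signal above background, at least 10.6-fold higher than control. The first of these was above background with both agents and the second with okadaic acid alone.

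**Figure D3:**
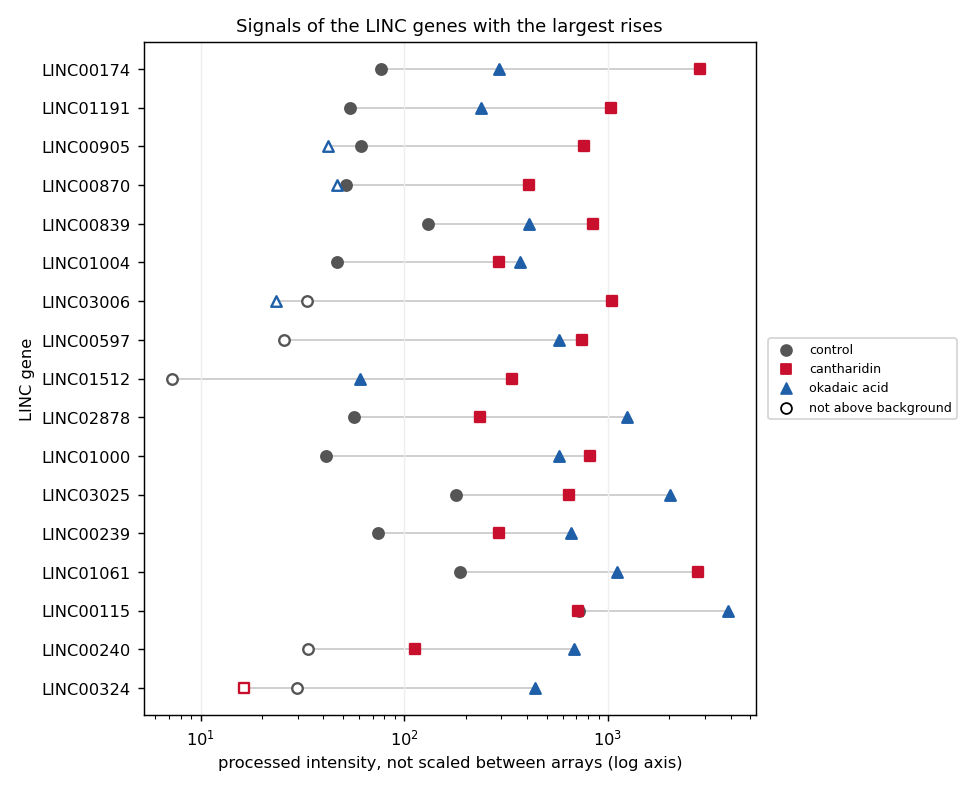
Processed intensity on a log axis for the 17 LINC genes named as the largest rises, on the control (circle), cantharidin (square) and okadaic acid (triangle) arrays, with open symbols for signals not well above background. LINC00174 reached 2828 with cantharidin from 76.7 in control, and LINC00115 reached 3891 with okadaic acid while its control and cantharidin points coincide.

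Falls with all signals above background included some of the brighter LINC genes. LINC00847 read 4660 in control, 747 with cantharidin and 1513 with okadaic acid, and fell by 2.50 ± 0.20 and 1.88 ± 0.20 on the log2 scale. LINC00963, first described in prostate cancer cells, read 5660, 1274 and 946 and fell by 2.01 and 2.84. Both genes were lower with each agent, LINC00847 most with cantharidin and LINC00963 most with okadaic acid. The range of LINC00847 overlaps the zinc finger gene ZFP62, which read 1034, 602 and 1557 (-0.64 and 0.34), and that of LINC00963 overlaps a gene with no matched probe.

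LINC01119, LINC00482, LINC01116 and LINC01270 were also below control with each agent. LINC01119 read 284, 80.9 and 78.0 (-1.67 and -2.12), and LINC00482 read 240, 72.2 and 95.1 (-1.60 and -1.59). LINC01116, studied in glioma, read 699, 222 and 116 (-1.51 and -2.84), and LINC01270 read 448, 194 and 167 (-1.07 and -1.68). For LINC01116 the okadaic acid array was lower than the cantharidin array by more than 1.5-fold, a log2 difference of -1.33, and for LINC01119 and LINC00482 the agents differed by less than 1.5-fold (-0.45 and 0.00), although the first was -0.75 in the deposited normalized values.

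LINC00205 and LINC00112 fell with cantharidin and stayed within 1.5-fold of control with okadaic acid. LINC00205 read 1124, 299 and 1026 (-1.77 and -0.39), and LINC00112 read 113, 35.8 and 102 (-1.52 and -0.40, the second -0.66 in the deposited normalized values). LINC00467, described as a target of the transcription factor MYCN in neuroblastoma, showed the other order. It read 803, 564 and 243, or -0.37 with cantharidin and -1.98 with okadaic acid.

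LINC00467 was 1 of the 2 LINC genes whose probe was spotted 10 times on each array, the other being LINC00474. That second probe of LINC00467 gave a mean of 910 over 10 control spots (843 to 1060), 587 over 10 cantharidin spots (552 to 619) and 151 over the 9 okadaic acid spots without an outlier flag (125 to 171). The differences from control were -0.50 ± 0.03 and -2.85 ± 0.05 (SE over spots of 1 array each, which measures spot noise and not biological spread). The spots of control and cantharidin did not overlap, and those of okadaic acid lay far below both, so both probes ranked the 3 arrays alike. LINC00474 was above background in 0 spots on each array, with means of 16.3, 10.4 and 23.9, and no fold is given.

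Promoters of LINC00847, the first fall in the ranking, and of LINC00963, which holds an AP-1 motif (TGAGTCA, in capitals) and was chosen for it after the values were seen, lie at chr5:180830707-180831006 and chr9:129488410-129488709, both on the plus strand of GRCh38.p14. The second is far richer in the dinucleotide CG, with 43 against 14, and the promoters of LINC01191 and LINC01061 above hold 1 and 2.
LINC00847: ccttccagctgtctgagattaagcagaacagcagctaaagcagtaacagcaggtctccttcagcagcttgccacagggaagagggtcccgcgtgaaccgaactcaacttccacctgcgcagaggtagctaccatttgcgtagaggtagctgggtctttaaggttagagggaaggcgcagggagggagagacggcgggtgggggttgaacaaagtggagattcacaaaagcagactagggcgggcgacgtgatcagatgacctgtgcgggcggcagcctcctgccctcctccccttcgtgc
LINC00963: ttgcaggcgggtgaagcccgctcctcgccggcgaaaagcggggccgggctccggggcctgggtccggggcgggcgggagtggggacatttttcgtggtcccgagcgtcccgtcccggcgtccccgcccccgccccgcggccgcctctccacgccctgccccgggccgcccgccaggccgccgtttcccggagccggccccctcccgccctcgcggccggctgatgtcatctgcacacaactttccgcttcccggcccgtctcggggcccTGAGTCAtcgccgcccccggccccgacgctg

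**Figure D4:**
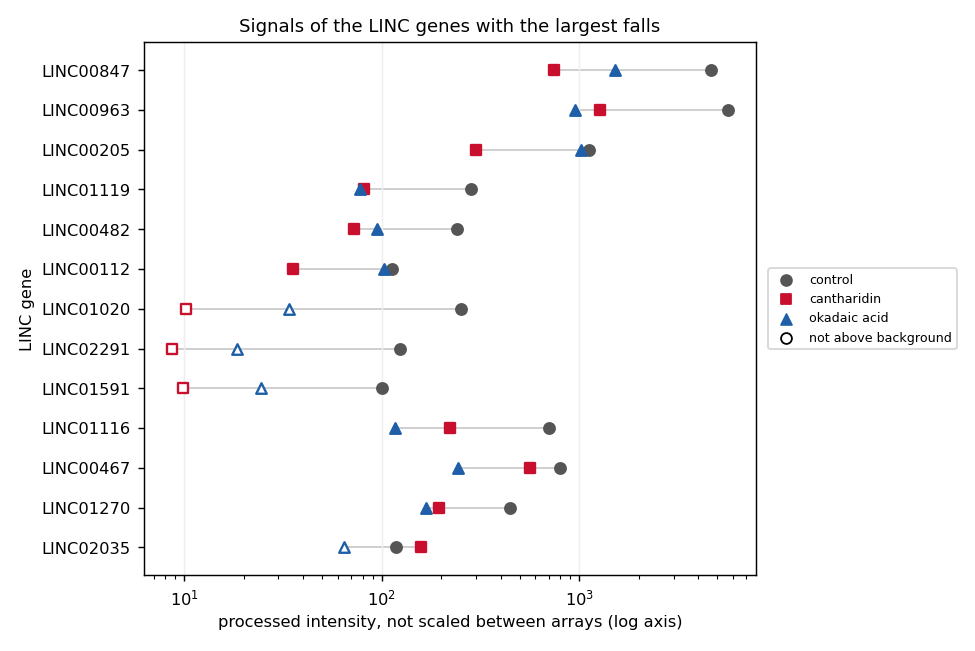
Processed intensity on a log axis for the 13 LINC genes named as the largest falls, on the control (circle), cantharidin (square) and okadaic acid (triangle) arrays, with open symbols for signals not well above background. LINC00963 fell from 5660 in control to 1274 and 946, and LINC00205 fell with cantharidin (299) but not with okadaic acid (1026 against 1124 in control).

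Some genes fell below detection, which again bounds the fold. LINC01020 read 251 in control and 10.2 and 33.9 with the agents, both not well above background, at least 10.4-fold lower with cantharidin and at least 5.17-fold with okadaic acid. This fall is that of its brightest probe, since its other probe (29.2, 21.9 and 26.5) was not above background on any array. LINC02291 went from 124 to 8.63 and 18.5 (at least 5.15-fold and 2.55-fold lower), and LINC01591 from 101 to 9.92 and 24.6 (at least 4.18-fold and 2.07-fold lower). In all 3 genes only the control signal of the probe used was above background. LINC02035 was lost with okadaic acid only: 118 in control, 159 with cantharidin and 64.4, not above background, at least 2.18-fold lower than control.

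LINC01003 was past 1.5-fold in opposite directions under the agents. It read 1228 in control, 614 with cantharidin and 2320 with okadaic acid, which is -0.86 and 0.66, all 3 signals above background. With scaling to the median the okadaic acid difference was 0.54, under the threshold. Between the agents the difference was 1.52. LINC00671 read 141, 113 and 586, close to control with cantharidin (-0.17) and above it with okadaic acid (1.80), and was 1.97 higher with okadaic acid than with cantharidin.

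**Figure D5:**
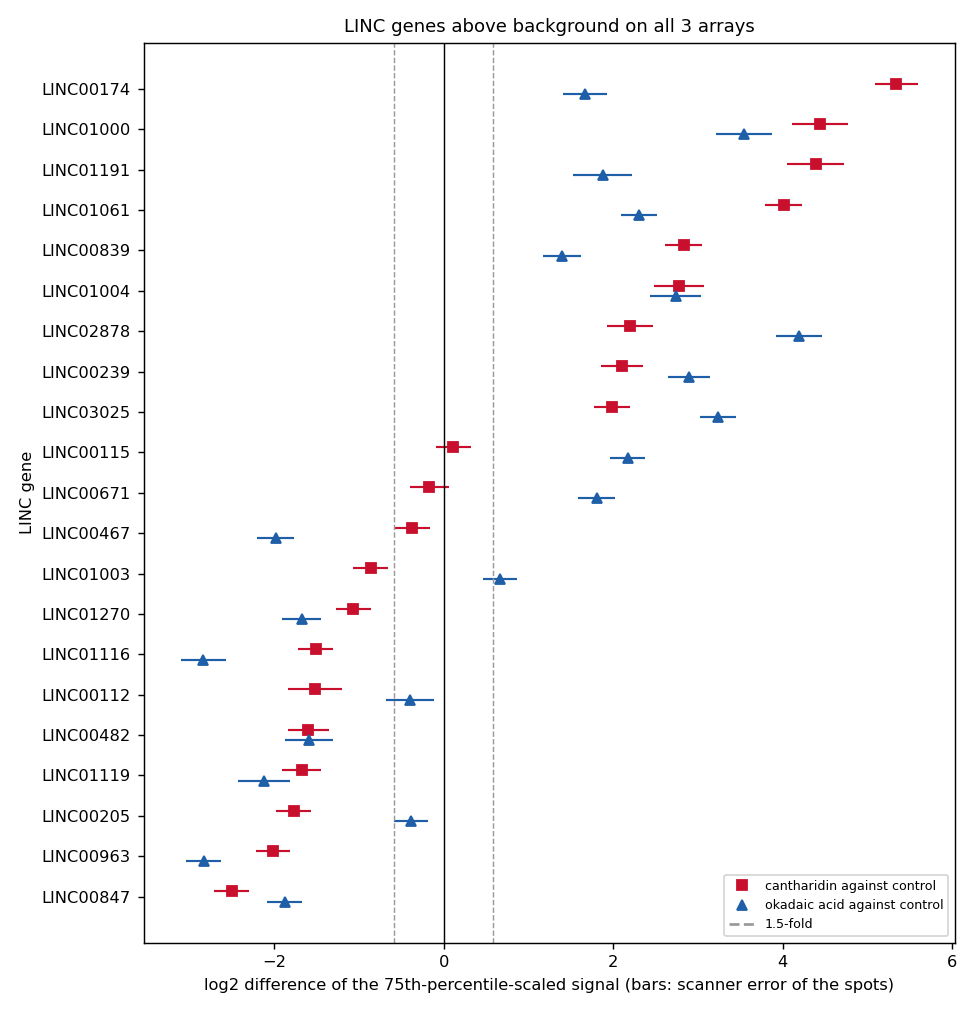
Log2 difference from control with cantharidin (square) and okadaic acid (triangle) for 21 LINC genes above background on all 3 arrays. Bars mark the scanner's error of the 2 spots and dashed lines 1.5-fold. Drawn are genes named for the largest changes, for opposite directions or for the largest differences between the agents. Genes named only as much studied are left out. The points share the control array. LINC00174 has the largest cantharidin difference (5.34) and LINC02878 the largest okadaic acid difference (4.19) among them, and LINC01003 lies on opposite sides of 0.

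Much studied LINC genes were followed from a list of 48 drawn from the cancer literature. Of these, 25 had a probe and 19 were kept. On both arrays 16 were measured for cantharidin, with 4 higher and 5 lower (25% and 31.2%, against 25.6% and 33.1% of all genes), and 15 for okadaic acid, with 7 higher and 6 lower (46.7% and 40%, against 28.1% and 27.1%). LINC00261, needed for endoderm formation and neighbour of the transcription factor gene FOXA2, read 80.7 in control, 5.62 with cantharidin and 57.7 with okadaic acid, with only the control above background, at least 3.35-fold and at least 1.66-fold lower. LINC00173 read 320, 121 and 134 (-1.27 and -1.51), and LINC00339, which lies beside CDC42, read 2790.1, 1508 and 1697 (-0.75 and -0.97). These 3 were below control with both agents, as were LINC00963 and LINC01116 above.

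LINC00265 had 4 probes. The one used read 1046, 4511 and 2150 (2.25 and 0.78). With cantharidin the 4 probes ranged from 0.93 to 4.65, all higher, and with okadaic acid the 3 that could be compared ranged from 0.10 to 3.11. LINC01089, a suppressor of metastasis that EGF lowers in mammary cells, read 1085, 2191 and 1709, a rise of 1.15 with cantharidin and a difference of 0.40 with okadaic acid. LINC00294 read 1145, 905 and 3675 (-0.20 and 1.43), LINC00312, first described in nasopharyngeal cancer, read 77.0, 76.7 and 169 (0.13 and 0.88), and LINC00857 read 732, 693 and 1315 (0.06 and 0.59). Each of these last 3 passed 1.5-fold with okadaic acid only, and LINC00857 dropped under it with scaling to the median (0.47) or with differences centred by position on the array (0.35). With normexp correction the okadaic acid difference of LINC00312 was 0.41 and that of LINC00261 was -0.27, both under 1.5-fold. The ranges of LINC00312 and LINC01089 overlap the coding genes LMCD1 and SETD1B. LMCD1 read 11148, 11592 and 18228 (0.19 and 0.45), and SETD1B had no value here.

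LINC00941, LINC01559 and LINC00520 complete the list. LINC00941, studied in gastric and pancreatic cancer, read 2335, 1545 and 1213 (-0.46 and -1.20). LINC01559, which has been studied in pancreatic cancer, read 177, 253 and 335 (0.65 and 0.67). LINC00520 was not above background in control (18.4) and read 38.5 and 104 with the agents, higher by at least 1.21-fold with cantharidin and by at least 2.50-fold with okadaic acid. The first fell with okadaic acid past 1.5-fold, and the other two were higher than control with both agents.

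Long non-coding RNAs with other names were set beside the LINC genes. Of 40 listed, 32 had a probe and 31 were above background on at least 1 array. Measured on both arrays, 15 of 28 were higher and 5 lower with cantharidin (53.6% and 17.9%, against 25.6% and 33.1% of all genes). With okadaic acid 12 of 27 were higher and 6 lower (44.4% and 22.2%, against 28.1% and 27.1%). The medians were 0.76 and 0.36. MEG3, an imprinted transcript with growth-limiting activity, read 2222, 61047 and 27536 (4.92 and 3.38), and SNHG12, a host of small nucleolar RNAs, read 2103, 21211 and 15409 (3.47 and 2.62). H19, an imprinted transcript of growing tissue, read 2355, 140 and 487 (-3.93 and -2.53). These 3 were picked after their values were seen and are given for scale.

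Nearest coding genes were compared with their LINC genes on the same arrays, because some LINC RNAs act on their neighbours. With cantharidin, 115 pairs were measured, and the neighbours of the 25 higher LINC genes were higher in 6, lower in 10 and within 1.5-fold in 9. For the 28 lower LINC genes they were higher in 6, lower in 10 and within 1.5-fold in 12. The neighbours of higher and of lower genes thus moved much alike. Of all genes measured on both arrays, 25.6% were higher and 33.1% lower with cantharidin, and 28.1% and 27.1% with okadaic acid. With okadaic acid, 102 pairs were measured, with neighbours of the 33 higher genes higher in 12, lower in 7 and within 1.5-fold in 14, and neighbours of the 16 lower genes higher in 4, lower in 5 and within 1.5-fold in 7. Across pairs, which share both arrays, Pearson's r was 0.05 and Spearman's rho 0.03 with cantharidin, and 0.16 and 0.14 with okadaic acid.

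Single pairs went both ways. LINC01512 rose together with its neighbour VEGFA, the vascular growth factor, which read 1193, 9534 and 5564 (3.14 and 1.97). LINC01004 and LINC02878 rose beside KMT2E, a reader of histone marks (1.62 and 2.20), and the zinc finger gene ZNF707 (1.25 and 2.92). LINC00870 and its neighbour RYBP, a Polycomb protein, were both higher with cantharidin, RYBP by 2.09, and RYBP was at 0.21 with okadaic acid. In these 4 pairs the neighbour moved in the direction of the LINC gene in each comparison where the LINC gene was past 1.5-fold. LINC01512 was not above background in control, so its pair is not among the measured pairs above. Its okadaic acid rise was 0.54 with dim signals set to the limit of detection, under 1.5-fold.

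Elsewhere the neighbour moved against the LINC gene. LINC01270 fell while CEBPB, a transcription factor of stress and inflammation, rose from 23562 to 61381 and 58088 (1.52 and 1.05). LINC01020 fell below detection by its brightest probe while ADAMTS16, a secreted protease, read 25.7 (not above background), 1866 and 147, at least 58.7-fold higher with cantharidin and 3.51-fold with okadaic acid. LINC00265 rose while RALA, a small GTPase, read 763, 116 and 302 (-2.58 and -1.60). LINC00941 fell with okadaic acid while CAPRIN2, an RNA-binding protein, rose by 3.17. No rule of distance was applied to these pairs, and none was tested as a regulatory pair.

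Promoter sequence was available for 158 of the 222 kept LINC genes. The AP-1 motif was found in 20 of them (12.7%), against 7.76% of all 27305 RefSeq promoters of the same length and 13.8% of the 1578 LINC promoters. Among LINC genes measured on both arrays it was present in 4 of 23 higher and 6 of 30 lower with cantharidin, and in 5 of 26 higher and 3 of 19 lower with okadaic acid. Its share was thus similar in genes that rose and in genes that fell. The cyclic AMP response element (TGACGTCA) was in 2 of the 158 (1.27%, against 1.98% of all promoters). The amino acid response element (TTGCATCA) was in 3 (1.9%, against 0.923%) and the E2F motif (TTCCCGCC) in 3 (1.9%, against 3.18%). Of the 31 named genes with a promoter, AP-1 was present in LINC00963, LINC01061 and LINC00339, the cyclic AMP response element in LINC03006 and LINC00265, and E2F in LINC00941.

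LINC promoters held fewer CG dinucleotides than promoters at large. The median was 4 in the 1578 LINC promoters and 14 in all promoters, each 300 bases long. It was 6.5 in the 158 kept LINC genes and 5 in the 95 LINC genes above background on no array by the probe used.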

How the data were processed

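Spot intensity values of each array, from Feature Extraction 11.0.1.1, were deposited by the authors, background-subtracted per the file headers and not scaled between arrays, with flags for outlier spots and for signal well above background. A deposited table of normalized log2 values, of unstated method, was used as an alternative. The probe annotation is of hg19. Accessions were matched without version to RefSeq names of GRCh38.p14, which named 25705 of 34041 probes. Probe sequences were not used here, so binding to near-identical copies of a gene was not tested.

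Log2 processed intensity was averaged over unflagged spots and scaled to the 75th percentile of each array. Genes above background on 1 or both arrays of a comparison were compared, and called at 1.5-fold. Where only 1 of the 2 signals was above background, an "at least" fold was taken, with the dim signal raised to the limit of detection (the lowest signal well above background on its array) where it lay under that limit. No pseudocount was used. All arrays shared 1 slide and 1 scan, so batches could not be tested, and slide position cannot be told apart from group. The labels do not say whether the arrays came from separate cultures, and the number of arrays limits the precision.

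Named genes were, per agent and direction, the 6 largest changes above background on both arrays with agreeing probes and the 3 largest bounds, the genes past 1.5-fold in opposite directions, the 4 largest differences between the agents per direction, much studied genes past 1.5-fold, and genes with 10 spots. Neighbours and non-coding genes with other names were picked from their lists after their values were seen. Members and lists were chosen with earlier results of these data known. Motifs were counted per agent, not over both agents as planned, because the agents share the control array. Alternatives were normexp correction (offset 50, on median spot signals, the planned mean signal not being used here), other scalings, filters and thresholds, the deposited table, centring in 16 blocks and the median over probes. Scripts ran in Python 3.11.15 (numpy 2.4.6, pandas 2.3.3, matplotlib 3.10.9), and limma 3.58.1 in R 4.3.3. The counting was tested on simulated data.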

Additional observations from a re-analysis of the deposited data

How the results depend on the processing

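No paired analysis was possible because each group had 1 array, and for the same reason no array could be left out. Counts of genes called under both agents were not made, since both comparisons use the same control array. Replicate spots scattered more for dim probes than for bright ones. The counts that follow are of LINC genes. Where no share over all genes was given above, they do not set LINC genes apart from other genes. With normexp correction the LINC genes higher and lower were 34 and 29 for cantharidin, 34 and 24 for okadaic acid (median 0.064) and 23 and 26 for okadaic acid against cantharidin. Over all genes the normexp medians were -0.09, -0.03 and 0.05. With no filter, 94 LINC genes were lower with cantharidin (median -0.25), the median with okadaic acid was 0.30, and 171 were higher with okadaic acid than with cantharidin (median 0.53). The medians of all genes with no filter were -0.24, 0.09 and 0.27. With signal above background on all 3 arrays there were 34 LINC genes higher and 38 lower with cantharidin, 23 lower with okadaic acid, and 24 lower between the agents (median 0.30, against 0.17 over all genes). With both compared arrays above background, 36 were higher with cantharidin, 23 lower with okadaic acid and 27 lower between the agents (median 0.32). With scaled log2 signals of at least -3, chosen after seeing the data, the counts were 17 and 15, 23 and 14, and 23 and 19. With dim signals set to the limit of detection, which can lie above the signal of the other array, the median between the agents was 0.30.

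Scaling moved the medians. Scaling to the median gave 0.054 for okadaic acid and 0.0045 between the agents. Quantile normalization turned the cantharidin median to 0.021 and gave 0.0083 between the agents, and the deposited normalized values also turned the cantharidin median to 0.0197, with 65 lower and a median of 0.0181 between the agents. With no scaling the medians were -0.24, 0.43 and 0.55, with 27 lower for okadaic acid and 25 lower between the agents. Over all genes they were -0.30, 0.26 and 0.52 with no scaling. The cantharidin median of all genes was -0.10 with quantile normalization and -0.12 in the deposited values. A 2-fold threshold left 36 LINC genes lower with cantharidin, 33 higher and 24 lower with okadaic acid, and 31 higher and 25 lower between the agents. For single named genes 1210 of 1245 values kept direction and side of the threshold, 34 fell under it, 14 of these with normexp correction, and 1 turned: LINC01000 between the agents was -0.90 by its brightest probe and 0.59 by the median over its probes. The causes were not tested.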
